A study of Rattus norvegicus with 5 samples.

Results

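The regions described are the outermost 2 Mb at both ends of rat chromosomes 1 to 20, in the genome build rn4. They were chosen by position alone: a peak listed on one of these autosomes belonged to an end when its start lay in the first 2 Mb or in the last 2 Mb of the chromosome. The length of a chromosome was taken as the largest end coordinate in any list. The 40 ends covered 80 Mb, or 3.13% of 2558 Mb. They held 346210 of the 12173850 peaks listed in the series, with 95623 from the high preference rats, 114407 from the low preference rats, 22627 from the first saline library and 113553 from the second.

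Chromatin bound by PARP1 was recovered with an antibody (ChIP-seq) from the central amygdala, in male Sprague Dawley rats whose age the labels used here do not give. Tissue of 2 animals was pooled for every library. The high cocaine CPP (conditioned place preference) group and the low cocaine CPP group had 1 library each, from rats that had been injected with 15 mg/kg cocaine intraperitoneally on days alternating with saline over 10 days and had then shown a high or a low preference for the cocaine compartment. The control saline only group had 2 libraries from rats given no cocaine. In all groups the brains were taken right after a 15 min preference test held 24 h after the last injection, so the controls share the training and the test. Input DNA from low preference rats was not used here. Peak lists hold no marker by which the labelled tissue could be checked.

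The tips of chromosomes carry telomeres, repeated DNA bound by a protective protein complex, and the neighbouring subtelomeric sequence is often rich in duplicated segments and hard to assemble. Many rat autosomes carry their centromere at or near 1 tip. Which ends of these lists are centromeric is not in the files. PARP1 binds DNA breaks and attaches ADP-ribose chains to nuclear proteins.

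Saline replicate 1 stood apart in depth. Where 4 values are listed below, they stand in the order high preference, low preference, saline replicate 1, saline replicate 2. Listed autosomal peaks came to 3249950, 3918162, 763427 and 3852448. A listed peak is a pileup of overlapping reads with a height of at least 2. The running number of each list also counts pileups that were not listed, and these numbered pileups came to 10799688, 11707500, 5467139 and 11634809 on the autosomes. Counts are therefore given as a ratio of an end to the rest of the same chromosome in the same library, where the rest leaves out both ends.

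The first 2 Mb of the autosomes held fewer pileups than the rest in all 4 libraries, and the last 2 Mb held about as many. Over the 20 first ends together there were 3603, 3854, 1813 and 3908 numbered pileups per Mb. The rest of the chromosomes held 4230, 4586, 2141 and 4557 per Mb. The last ends held 4326, 4706, 2194 and 4640 per Mb. The first ends thus lay below and the last ends slightly above the rest in each library.

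Taken chromosome by chromosome, the median ratio of the first end to the rest was 0.885, 0.871, 0.845 and 0.900. It was below 1 on 17, 16, 17 and 15 of the 20 chromosomes. The mean over the libraries was 0.875, and an exact two-sided sign-flip permutation test over the 4 libraries gave p = 0.125, the smallest value that 4 libraries can give. At the last ends the medians were 1.02, 1.04, 1.00 and 1.03, with a mean of 1.02 and the same p of 0.125 in that exact permutation test. Of 18 such tests, over 6 measures and over the first end, the last end and the ratio between them, 8 reached this limit, and Benjamini-Hochberg adjustment left it at 0.281 (exact permutation test). No test in this design could pass 0.05, so the values rest on their direction and size in the 4 libraries. Nothing in the labels says that the libraries were prepared apart. In this exact permutation test p = 0.125 is reached whenever the 4 libraries lie on the same side of 1, whatever their spread.

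**Figure D1:**
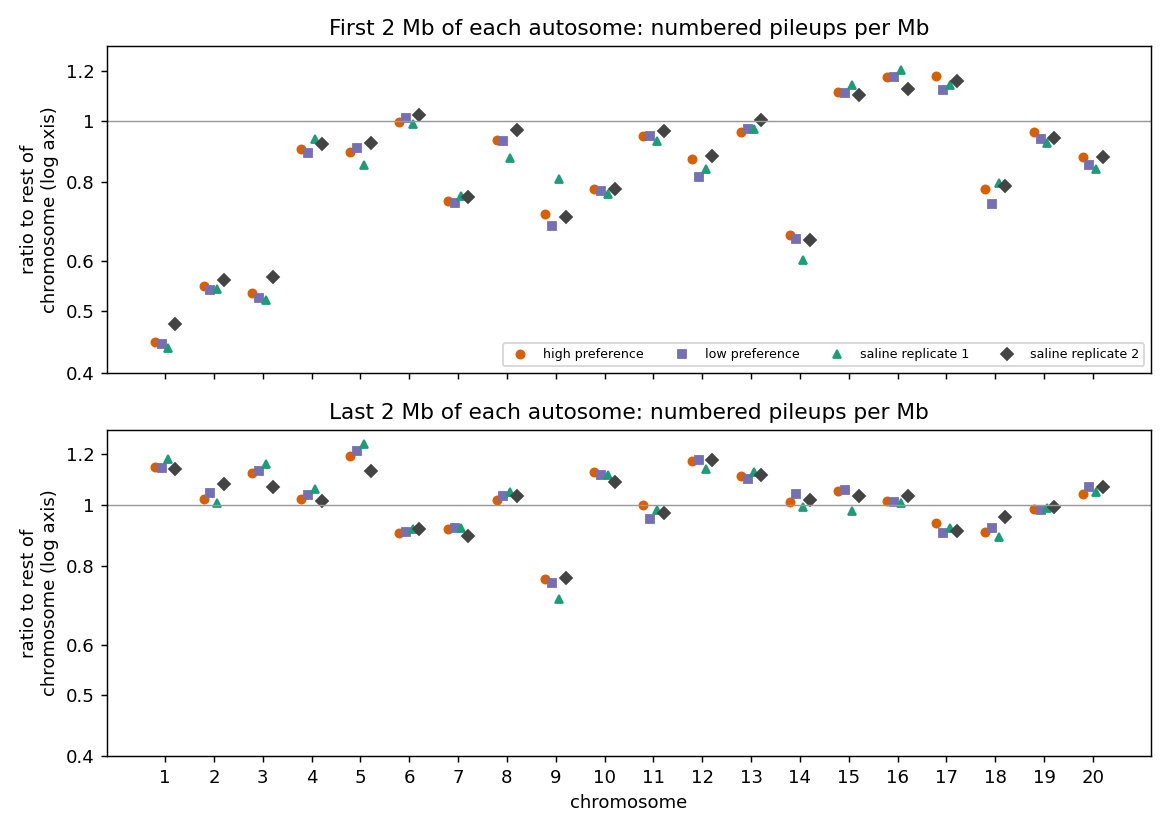
Numbered pileups per Mb in the first 2 Mb (top) and the last 2 Mb (bottom) of each autosome, as a ratio to the rest of the chromosome on a log axis. Each point is 1 library. The 4 libraries lie close together on most chromosomes, and the first ends of chromosomes 1, 2, 3 and 14 lie lowest, between 0.438 and 0.661.

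The first end lay below the last end of the same chromosome in all 4 libraries on 15 of 20 chromosomes. The median ratio of first to last end was 0.864, 0.832, 0.850 and 0.876. Listed peaks per Mb differed between the ends in the same direction, with medians of 0.825, 0.776, 0.807 and 0.850.

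Chromosomes were far from uniform. In all 4 libraries, 15 first ends lay below the rest of their chromosome, 3 lay above it and 2 were mixed. The last ends were divided otherwise, with 7 below, 11 above and 2 mixed. No such count is given for interior windows, whose median ratio was 1.02 in each library. An end was called sparse when its ratio was at most 1 over 1.2 in every library and dense when it was at least 1.2 in every library. Of the 40 ends, 9 were sparse and 0 were dense. Among all 1268 windows of 2 Mb on the autosomes, ends included, 6.62% were sparse and 0.158% were dense by the same rule. The sparse ends, 22.5% of the 40, were 8 of the 20 first ends (40% of them) and 1 of the last ends.

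**Figure D2:**
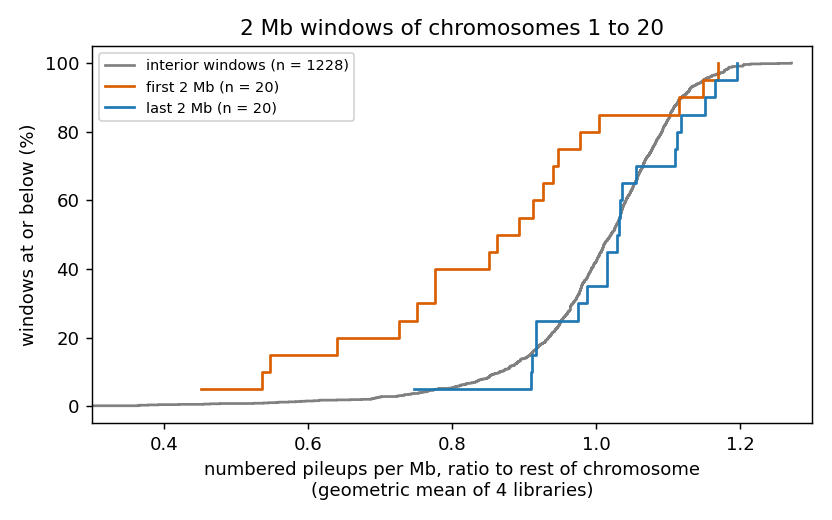
Cumulative share (%) of 2 Mb windows by their numbered pileups per Mb relative to the rest of the chromosome, as the geometric mean of 4 libraries. The curve of the first ends lies to the left of the 1228 interior windows over most of its range, and the curve of the last ends follows the interior windows.

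The sparsest end was the first 2 Mb of chromosome 1. It held 1854, 1976, 919 and 2120 numbered pileups per Mb, against 4146, 4447, 2098 and 4444 in the rest of the chromosome. The ratios were 0.447, 0.444, 0.438 and 0.477, and their spread between libraries was small beside the distance from 1. Only 0.570% of the interior windows of the autosomes had a lower mean ratio. The opposite tip of the chromosome, from 265909924 to 267909924, was among the fullest ends, with ratios of 1.15, 1.14, 1.18 and 1.14.

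The first 2 Mb of chromosome 3 followed, with ratios of 0.535, 0.525, 0.521 and 0.566. The first 2 Mb of chromosome 2 had 0.548, 0.541, 0.542 and 0.559. The first 2 Mb of chromosome 14 had 0.661, 0.651, 0.602 and 0.649. With chromosome 1 these were the 4 sparsest ends, and within each of them the libraries gave nearly the same value.

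The sparseness of these 4 ends was made up of blocks. On chromosome 3 the mean ratio over the libraries was 0.350 in the first 250 kb and 0.138 in the next, and it was back at 0.898 between 1250 and 1500 kb. On chromosome 2 it lay between 0.242 and 0.423 over the first 1250 kb and reached 1.04 between 1500 and 1750 kb. On chromosome 14 the sparsest bins lay between 1000 and 1500 kb, at 0.223 and 0.224, and the next bin had 1.12. Chromosome 1 ran the other way. Its lowest bin, at 0.130, was the innermost of the 2 Mb, between 1750 and 2000 kb, and the level reached 1.21 only between 2500 and 2750 kb. The 2 Mb limit thus cuts through the sparse block of chromosome 1 and ends inside full sequence on the others.

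Within such ends more of the 10 kb bins held no listed peak at all. On chromosome 1, 28.5%, 27.0%, 59.5% and 21% of the bins of the first end were without a listed peak. In the rest of that chromosome the shares were 8.20%, 7.79%, 18.9% and 7.77%. The median bin held 3 listed peaks in the first end and 13 in the rest in the high preference library, and 4 against 16 in saline replicate 2. Bins without peaks and bins with few peaks were therefore both more common there.

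The next sparse ends were the first 2 Mb of chromosomes 9, 7, 10 and 18 and the last 2 Mb of chromosome 9. Their mean ratios were 0.726, 0.751, 0.775, 0.776 and 0.747. At the last end of chromosome 9 (111440392 to 113440392) the ratios were 0.763, 0.752, 0.709 and 0.766. Chromosome 9 was the one autosome with both ends sparse.

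The fullest end was the last 2 Mb of chromosome 5 (171096054 to 173096054). It held 5015, 5523, 2622 and 5116 numbered pileups per Mb. The ratios to the rest were 1.193, 1.22, 1.25 and 1.13, and saline replicate 2 lay below the 3 others. The first 2 Mb of chromosome 16 (1.17, 1.17, 1.201 and 1.12) and the last 2 Mb of chromosome 12 from 44781735 to 46781735 (1.17, 1.17, 1.14 and 1.18) came next, followed by the last 2 Mb of chromosome 1 and then the first 2 Mb of chromosome 17 (1.18, 1.12, 1.14 and 1.16). The first ends of chromosomes 16, 17 and 15 were the 3 that lay above the rest in every library, in contrast to most first ends.

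The difference between the sides was about as large when sequence without any listed peak was left out. Of the 4000 bins of 10 kb in the first ends, 3742 held a listed peak in at least 1 library, against 3800 of 4000 in the last ends and 94.2% in the rest. With occupied bins as the denominator in place of length, the mean ratio of the first ends was 0.879 and that of the last ends was 1.00. The fewest occupied bins were in the first end of chromosome 14, with 165 of 200, and the most in the last end of chromosome 20, with 199. The longest stretches without a listed peak in any library were 162 kb on chromosome 20 (921453 to 1083665), 156 kb near the end of chromosome 7 (141881859 to 142038120) and 156 kb near the end of chromosome 6 (147011720 to 147167810). How much of each end short reads can be placed in was not tested.

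The shortfall of pileups at the first ends was deepest at the tip and faded within about 2 Mb. In the outermost 250 kb the median ratio over the 20 chromosomes was 0.782, 0.801, 0.759 and 0.813. Between 1500 and 1750 kb it was 1.01, 1.00, 0.995 and 1.01. Of the 8 bins of 250 kb in the first 2 Mb, 7, 7, 8 and 7 lay below 1, and between 2 and 4 Mb 0, 2, 3 and 1 of 8 did. Between 4 and 10 Mb from the tip 8, 6, 7 and 5 of 24 bins lay below 1, the lowest at 0.901, 0.921, 0.942 and 0.932. The outermost 250 kb was thus the lowest bin in every library, but bins below 1 were also found further in.

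At the last ends the level did not change at the 2 Mb limit. The mean of the bin medians was 1.06, 1.06, 1.05 and 1.06 over the last 2 Mb. Between 4 and 10 Mb from the tip it was 1.08, 1.07, 1.08 and 1.07. A typical interior window of 2 Mb also lay slightly above 1, at 1.02 in each library. The median excess of the last ends, between 1.00 and 1.04, was thus close to that of interior windows.

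**Figure D3:**
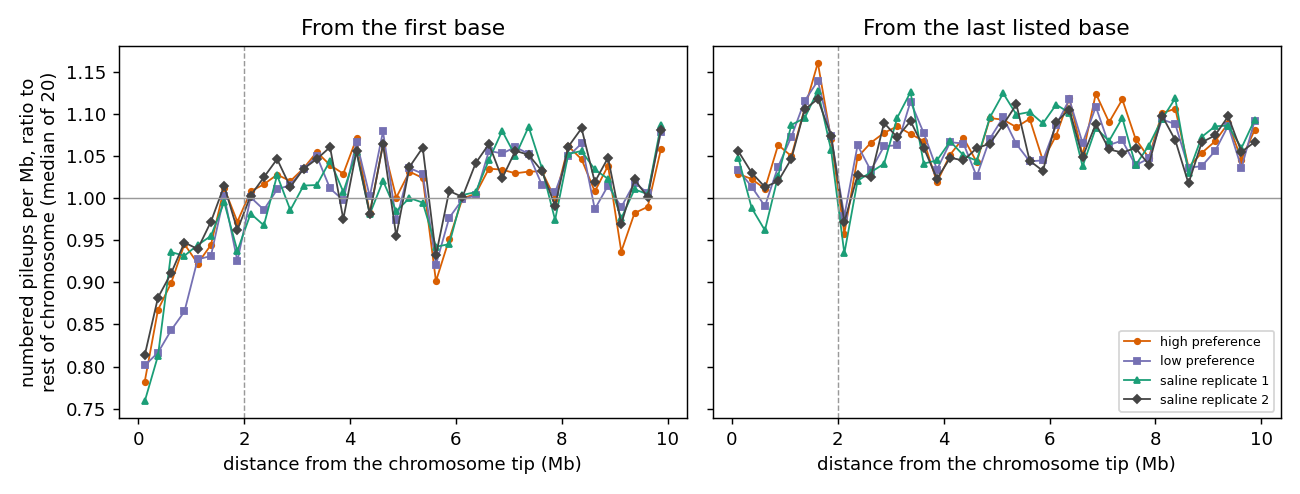
Median over 20 autosomes of numbered pileups per Mb in bins of 250 kb, relative to the rest of the chromosome, by distance in Mb from the first base (left) and from the last listed base (right). Lines are libraries and the dashed line marks 2 Mb. The first ends rise from between 0.759 and 0.813 at the tip to about 1, and the last ends stay near or above 1.

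In the outermost 10 kb the counts at the first ends were lower still. They held 2400, 2555, 730 and 2580 numbered pileups per Mb, which is 0.567, 0.557, 0.341 and 0.566 times the rest of the autosomes. The outermost 10 kb of the last ends stood at 0.892, 0.820, 0.731 and 0.854. These values rest on few pileups, with 146 numbered pileups over 20 first ends in saline replicate 1 and 480 to 516 in the others. Unlisted pileups are counted with the next listed peak, so those after the last listed peak of such a window are missed. A window without a listed peak counts as 0, as 2, 4, 9 and 3 of the first ends did. The part of this counting in the low values was not tested. Listed peaks per Mb at the first ends were 815, 1005, 150 and 1050, against 1273, 1535, 299 and 1509 in the rest. No peak was listed in the first 10 kb of chromosomes 3 and 5 in any library.

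The pileups that were listed in the ends were neither taller nor longer than elsewhere on most chromosomes. Over all first ends the mean height was 2.26, 2.30, 2.13 and 2.30 reads, and in the rest it was 2.25, 2.29, 2.10 and 2.29. In the last ends it was 2.25, 2.29, 2.10 and 2.29. By chromosome the median ratio of mean height at the first ends was 0.999, 0.996, 1.00 and 1.00. Of the first ends 17 of 20, and of the last ends 20 of 20, had a mean height within 3% of the rest of their chromosome in every library. Interior windows were also even. Their height ratios ran from 0.987 at the 10th percentile to 1.01 at the 90th with low preference, the widest of the libraries.

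Peak lengths were as even. The median listed peak spanned 78 bp with high preference and 79 bp with low preference, in the first ends, in the last ends and in the rest alike. In saline replicate 2 it spanned 79 bp throughout, and in saline replicate 1 it spanned 77 bp in the first ends and 76 bp elsewhere. Leaving out the first end of chromosome 9, the ratio of mean length to the rest lay between 0.963 and 1.03 and the ratio of mean height between 0.978 and 1.04 over all ends and libraries. The shortest and lowest pileups by the mean over libraries were at the first end of chromosome 13, with a height ratio of 0.983 and a length ratio of 0.980, followed by the last end of chromosome 17 (95288058 to 97288058) at 0.987 and 0.984. The first end of chromosome 17 was the next in height at 0.990 and the first end of chromosome 12 the next in length at 0.986. The longest after chromosome 9 were at the last ends of chromosomes 10 (1.02) and 2 (1.01). The first ends of chromosomes 2 and 1, among the sparsest in number, ranked behind chromosome 9 in height, both at a ratio of 1.03.

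Fewer of the numbered pileups were listed in the first ends of most chromosomes. The median ratio of the listed share at the first ends was 0.955, 0.951, 0.960 and 0.988. Listed peaks per Mb had median ratios of 0.843, 0.815, 0.796 and 0.903, below those of numbered pileups in all libraries but saline replicate 2, where they were about equal. The part of the lower read density in the listed share was not tested.

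The first end of chromosome 9 was the exception in height and length. Its mean height was 2.65, 2.71, 2.49 and 2.66 reads, against 2.24, 2.29, 2.09 and 2.28 in the rest of the chromosome. Its mean length was 108, 109, 95.5 and 107 bp against 86.4, 88.5, 81.0 and 88.3 bp. Each library thus placed it at 1.17 times the rest or more in height and at 1.18 to 1.25 times in length. It was at the same time one of the sparse ends, with numbered pileups at 0.712, 0.683, 0.811 and 0.705 times the rest. Listed peaks per Mb were at 0.794, 0.690, 1.374 and 0.762 times the rest, so saline replicate 1 alone listed more peaks there than elsewhere.

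Most of the tall pileups of this end lay in a stretch of 519 kb at chr9:717231-1236663. Of the peaks with at least 5 reads, 144, 163, 37 and 142 were in it and 24, 24, 1 and 26 in the remainder of the first 2 Mb. The stretch was drawn around the regions of that end that rank among the 10 tallest of all ends, so its height is a description. Mean heights in it were 3.52, 3.58, 2.82 and 3.60 reads. In the remainder of the first 2 Mb they were 2.29, 2.34, 2.13 and 2.34, close to the rest of the chromosome. The bin from 600 to 700 kb, outside the stretch, was higher at 3.20, 3.33, 2.43 and 3.20. Listed peaks there were also long, with a mean of 157 bp, 152 bp, 109 bp and 160 bp, and the longest spanned 2190 bp in the low preference library.

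Pileups in the stretch were fewer but taller than in the rest of the chromosome. Numbered pileups stood at 0.605, 0.563, 0.937 and 0.555 times the rest of chromosome 9. Reads per Mb were estimated from the listed heights, with every unlisted number taken as 1 read, and were at 0.935, 0.870, 1.42 and 0.844. The estimate was thus a little below the rest in the 3 deeper libraries and above it in saline replicate 1. A height counts only reads that overlap at the same place, so a long pileup can hold more reads than its height. Mean lengths in the stretch were 1.82, 1.72, 1.35 and 1.81 times the rest of chromosome 9. The estimate therefore cannot tell whether the stretch held fewer reads. A stretch of 147 kb without any listed peak (1298210 to 1445644) lay just beyond it.

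The stretch was chosen by heights over all 4 libraries, so the sharing of its pileups between libraries is a description too. Of 441 listed peaks of saline replicate 1 in the stretch, 84.1% overlapped a listed peak of saline replicate 2 by at least 1 bp, against 29.3% in the rest of chromosome 9. Of 613 listed peaks of the high preference library, 64.9% overlapped one of the low preference library, against 30.2%. Listed peaks of saline replicate 2 covered 18.7% of the stretch and 13.8% of the rest of the chromosome, and those of the low preference library covered 19.1% and 14.1%. Peaks are also longer in the stretch, and the part of length and cover in the overlap was not tested.

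**Figure D4:**
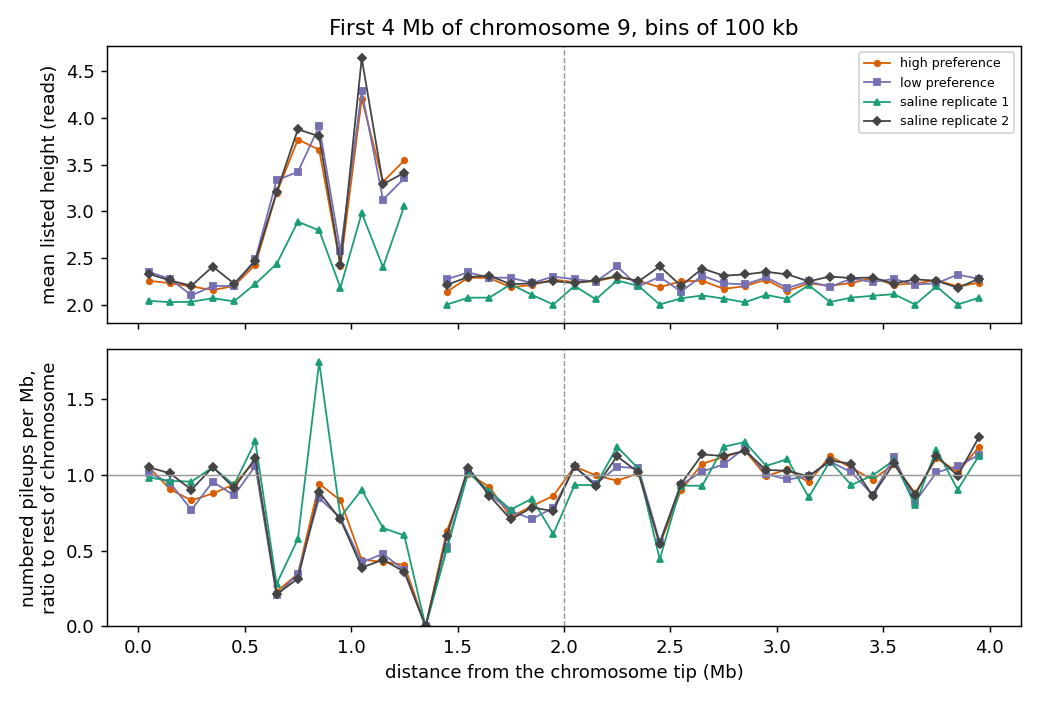
Mean listed height in reads (top, axis not starting at 0) and numbered pileups per Mb relative to the rest of the chromosome (bottom) in bins of 100 kb over the first 4 Mb of chromosome 9, by distance from the tip in Mb. Lines are libraries and the dashed line marks 2 Mb. Heights rise in the same bins in all 4 libraries, to 4.21, 4.29 and 4.64 reads between 1000 and 1100 kb in the high preference, low preference and second saline libraries, and the gap in the lines is a bin with no listed peak.

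Chromosome 9 held a large part of the tall pileups in the first ends. Heights of at least 5 reads were listed 343, 483, 47 and 474 times in the first ends, and 168, 187, 38 and 168 of these were on chromosome 9. Per Mb, heights of at least 5 reads were at 1.68, 1.34, 4.73 and 1.369 times the rest. Without chromosome 9 they were at 0.900, 0.866, 0.953 and 0.930 times, below the rest in every library. Counts of at least 5 reads in the last ends were 229, 400, 7 and 360, or 1.12, 1.11, 0.704 and 1.04 times the rest per Mb. Heights of at least 10 reads were listed 15, 15, 1 and 27 times in the first ends, of which 12, 13, 0 and 23 were on chromosome 9. Per Mb these were at 3.18, 2.93, 0.613 and 4.77 times the rest, so saline replicate 1, with its single such peak, showed no excess. No listed peak in any end reached 20 reads, while 79, 109, 33 and 123 did in the rest.

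The tallest regions were found after merging listed peaks of the 4 libraries that overlapped, and ranked by mean height after dividing by each library's summed autosomal heights. Of the 10 tallest, 6 were in the stretch of chromosome 9 and 3 lay within 3 kb of a tip. All 10 had a listed peak in every library, against 0.612% of the 230985 merged regions in the ends. Ranking by the mean over the same libraries favours such regions, so their presence in every library is a description. The ranking leans on saline replicate 1, whose small sum raises its scaled heights.

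The tallest was at chr12:2216-2434, with 13, 8, 10 and 13 reads. Exact 95% Poisson intervals ran from 6.92 to 22.2 reads for a height of 13, from 3.45 to 15.8 for 8 and from 4.80 to 18.4 for 10. The second, chr4:187125535-187125893, ended at the last listed base of the chromosome and had 9, 10, 9 and 19 reads. The third, chr15:410-673, had 13, 15, 7 and 13 reads. Intervals of the 4 libraries overlapped at the first of these, but they are for heights not scaled to depth and cover counting error only. After the scaling used for the ranking, that region stood at 11.9, 5.95, 41.6 and 9.85, with saline replicate 1 far above the others. At the other tips the tallest pileup within 10 kb had at most 6 reads in any library.

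On chromosome 9 the tallest were chr9:717231-718961 with 12, 13, 7 and 11 reads and chr9:1085728-1087524 with 15, 16, 5 and 14. The next were chr9:1064831-1068277 (10, 14, 6 and 10) and chr9:1233635-1236663 (10, 13, 5 and 12). The region chr9:1038760-1039351 had 8, 10, 6 and 11 reads and chr9:802270-809062 had 11, 11, 5 and 9. The remaining region was chr3:131612-132448 with 11, 9, 5 and 14 reads, in the sparse first end of chromosome 3. These heights are not scaled to depth, and no comparison between groups was made on them.

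Listed peaks in the ends were shared between libraries about as often as elsewhere. Of the peaks from high preference rats 29.9% in the first ends, 31.8% in the last ends and 30.5% in the rest overlapped a listed peak of the low preference library, which covered 11.0%, 14.5% and 13.6% of the length. Of the saline replicate 1 peaks 32.1%, 30.6% and 29.5% overlapped saline replicate 2, which covered 11.4%, 13.8% and 13.3%.

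The difference between high and low preference at the ends was smaller than the gap between the saline libraries, of which replicate 1 was shallow. Between these 2 libraries the median ratios of numbered pileups differed by 0.02 on the log2 scale at the first ends and by -0.03 at the last ends (high minus low). The 2 saline libraries differed by -0.09 and -0.04 (replicate 1 minus replicate 2). With 1 library per cocaine group there is no replicate check and no test was run.

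No end was past 1.1-fold between high and low preference in either direction. The same fold was passed upward, with high above low preference, by 0.158% of all 2 Mb windows and downward by 0.0789%. Between the saline libraries 2 ends were at least 1.1 times higher in replicate 1, against 0.789% of all windows, and 1 was lower by that fold, against 1.42%. The 2 were the first end of chromosome 9 at 1.15 and the last end of chromosome 5 at 1.102, and the other was the first end of chromosome 8 at 0.903, all named after their values were seen. The largest ratios of high to low preference were 1.07, 1.06 and 1.05, at the first ends of chromosomes 12, 18 and 17. The smallest were 0.971, 0.975 and 0.980, at the last ends of chromosomes 14, 20 and 2. At the first ends the ratios of high to low preference had a median of 1.01, with 17 of 20 above 1, while the interior windows had 612 of 1228 above 1. Pairs over saline replicate 2 leaned below 1 at the first ends. Low preference over saline replicate 2 had a median of 0.972 with 3 of 20 above 1, against 583 of 1228 interior windows. High preference over saline replicate 2 had 0.986 with 7, against 637 interior windows. Saline replicate 1 over replicate 2 had 0.970 with 6, against 614. Low preference over saline replicate 1 had a median of 1.003 with 10 of 20 above 1, against 629 interior windows. High preference over saline replicate 1 had 1.02 with 13, against 619.

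The first end of chromosome 12 differed more in listed peaks than in numbered pileups. It held 1009, 996, 241 and 1155 listed peaks per Mb. Relative to the rest of the chromosome these were 0.830, 0.668, 0.795 and 0.836, and the low preference library lay below the 3 others. By listed peaks 3 ends were past 1.1-fold with high above low preference, the first ends of chromosomes 12 (1.24), 9 (1.15) and 17 (1.103), against 2.68% of all windows. By the same measure the saline libraries had 5 ends past that fold with replicate 1 above replicate 2, against 12.6% of all windows, and 8 the other way, against 16.1%. In listed peaks the saline ratios ran from 0.826 to 1.80, a wider range than the 0.914 to 1.24 of the cocaine libraries.

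In numbered pileups the cocaine libraries lay between the saline libraries at the first ends. The median ratios were 0.885 and 0.871 against 0.845 and 0.900. Listed peaks and summed heights per Mb were ordered likewise. The listed share of those ends was lower in both cocaine libraries (0.955 and 0.951) than in both saline libraries (0.960 and 0.988). So were mean length (0.994 and 0.996 against 1.0005 and 0.997), mean height and the share of peaks above the lowest listed height. At the last ends numbered pileups had 1.02 and 1.04 against 1.00 and 1.03, with low preference above both saline libraries. By numbered pileups both cocaine libraries were above both saline libraries at 2 of the 40 ends, against 13.4% of all windows. At 7 ends both were below, against 13.5% of all windows. The 7 included the first ends of chromosomes 7 (0.746 and 0.741 against 0.760 and 0.758) and 18 (0.780 and 0.739 against 0.798 and 0.789). On chromosome 7 the gap between the groups was wider than the spread within either group. The same held at the first end of chromosome 4 and at the last ends of chromosomes 6 and 19. On chromosome 18 the gap was narrower than the spread between the cocaine libraries, as at both ends of chromosome 13.

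**Figure D5:**
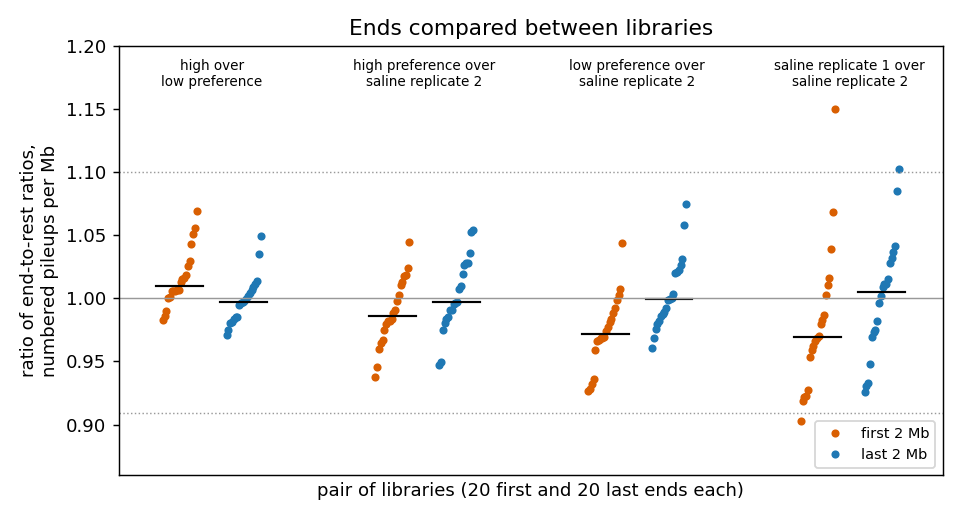
Ratio of end-to-rest ratios of numbered pileups per Mb for 4 pairs of libraries, with 1 point per end sorted by value, black bars for medians and dotted lines at 1.1-fold in each direction. The points of high over low preference lie between 0.971 and 1.07, and those of the saline pair spread from 0.903 to 1.15.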

How the data were processed

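Peak lists of 4 anti-PARP1 ChIP-seq libraries were analysed, and libraries were grouped by their group labels. Bowtie 0.12.7, Picard 1.37 and build rn4 are named, without their roles, per the submitters' processing notes, and a peak caller is not named in the sources used here. DNA was sheared again after precipitation, per the labels' protocols. The deposited lists give chromosome, start, end and summit per the file headers, with a running number per chromosome. The deposited whole numbers in an unnamed column were taken as signal, meaning the height of the pileup in reads without scaling to depth. Another deposited unnamed column, taken as a p-value, was not used. Numbers skipped between listed peaks were counted as unlisted pileups, with the listed peak after them. Whether coordinates count from 0 or 1 is not stated.

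The ends, measures and naming rule were chosen with earlier results of these data known. Each end was divided by its chromosome without both ends, and medians were taken over 20 autosomes. The exact sign-flip test ran over libraries, and the calculations were tested on simulated data. Ends named were the 5 highest and 5 lowest by numbered pileups, the 3 each way by height, length and high to low ratio, all sparse ends, the extremes of occupied bins and the 10 tallest regions. Poisson intervals use a 95% level and cover counting error only. Python 3.11.15, numpy 2.4.6, pandas 2.3.3, scipy 1.17.1 and statsmodels 0.14.6 were used. No rn4 sequence or annotation was used, so no genes or sequences are given.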

Additional observations from a re-analysis of the deposited data

Results flagged for a closer look

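In 3 measures the libraries of different groups lay on opposite sides of 1, and none of these differences was tested. The share of listed peaks with 3 or more reads, as the median ratio of the first ends to the rest, was below 1 with high (0.987) and low preference (0.974) and above 1 in saline replicates 1 (1.06) and 2 (1.01). The mean height at the first ends stood at 0.999 and 0.996 with high and low preference and at 1.003 and 1.0001 in saline replicates 1 and 2. The mean length at the last ends stood at 0.998 with high and 1.001 with low preference. Saline replicates 1 and 2 stood at 1.0007 and 0.9963 in that length, also on both sides of 1 and further apart. In the first of these measures the gap within the saline group was 0.08 on the log2 scale, as much as the mean difference of -0.08 between cocaine and saline.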

How the results depend on the processing

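The alternatives gave 186 values that kept their direction or, for counts and for differences between groups, stayed within 1.5 times or within the spread of the saline libraries. In 21 ratios the direction changed, and 7 counts or group differences moved further. Estimated reads, leaving out chromosomes 1, 2, 3 and 14, and leaving out chromosome 9 were chosen after seeing the data. Numbered pileups at the first ends stayed between 0.842 and 0.916 under every alternative run, and at the last ends they ran from 0.995 (outermost 1 Mb, a changed direction) to 1.03. The other ratios that changed direction were of height, length and the share of 3 or more reads. The outermost 1 Mb gave 0.988 for that share at the first ends and 1.0003 for length at the last ends, and the outermost 5 Mb gave 1.0011 for that length. Totals pooled over autosomes gave 1.0088 for height and 1.0084 for length at the first ends and 1.0006 for length at the last ends. Peaks of height 3 or more gave 0.9986 for height and 1.0004 for length at the last ends. The share at the first ends was 0.9996 without the outermost 100 kb, 0.998 without chromosome 9 and 0.984 without chromosomes 1, 2, 3 and 14. Without those 4 chromosomes the height at the last ends was 0.9991 and the share of first over last ends 0.9987. Leaving out 1 library at a time gave, at the first ends, 0.9982 to 1.0006 for height and 0.989 to 1.0187 for the share, and at the last ends 0.9997 to 1.0012 for height and 0.9984 to 1.00001 for length. For first over last ends it gave 0.9993 to 1.0004 for height, 0.9947 to 1.0166 for the share and 0.9951 to 1.0005 for length. The cause was not tested. With a fold of 1.1, 5 ends were dense against 9.07% of windows, and with a fold of 1.5, 4 were sparse against 2.05%. High above low preference was passed by 3 ends in listed peaks, against 2.68% of windows, and by 3 in summed heights, against 3.71%. The reverse was passed by 1 end in summed heights, against 1.03% of windows. Group differences changed sign as well. At the last ends the log2 difference of high minus low preference was -0.0272 and became 0.0014 in summed heights. The log2 difference of cocaine minus saline was 0.0141 at the last ends and became -0.0158 in listed peaks, -0.0127 in summed heights and -0.0050 to 0.0332 without 1 saline library. At the first ends it was 0.0095 and became -0.0325, -0.0106 and -0.0356 to 0.0546, so it has no stable sign. Unscaled heights kept 9 of the 10 tallest regions. Depth limits saline replicate 1 most. No paired analysis was possible because the labels give no replicate numbers that join libraries.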
